A study of Homo sapiens with 12 samples.

Results

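NRF2, encoded by NFE2L2, is the transcription factor that drives the cellular response to oxidants and electrophiles. In resting cells the adaptor KEAP1 binds NRF2 and presents it to a CUL3 ubiquitin ligase for degradation. When cysteines of KEAP1 are modified, NRF2 escapes, pairs with a small MAF protein and binds antioxidant response elements in front of genes for glutathione synthesis, thioredoxin reduction, quinone detoxification and NADPH supply. Doxorubicin is an anthracycline that poisons topoisomerase II, and its quinone ring can also be cycled between redox states by cellular reductases, which gives rise to reactive oxygen species. The NRF2 set read here comprised 10 genes, chosen by symbol: NFE2L2 and KEAP1 themselves and 8 established targets, NQO1, HMOX1, GCLC, GCLM, SRXN1, TXNRD1, SLC7A11 and OSGIN1. Of the 10 genes, 9 were among the 17013 genes of the expression table, and the expression of SRXN1, which encodes sulfiredoxin, was not analysed here.

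The measurements came from HCC1806, an established triple-negative breast cancer (TNBC) cell line with basal features. Cells were transfected either with a non-targeting control siRNA (siNT) or with a pool of 4 siRNAs against the kinase MLK4 (siMLK4), followed 24 h later by 1 μM doxorubicin for a further 24 h or by no drug. The drug-free cells carry the label DMSO and are called vehicle-treated here. Their labels give time 0, and the time of their collection relative to the drug-treated cells was not tested. If they were collected earlier, time after transfection would differ together with the drug, and the design could not tell these apart. Poly(A) RNA was sequenced from 3 libraries for each of the 4 groups: siNT vehicle, siNT doxorubicin, siMLK4 vehicle and siMLK4 doxorubicin. Each library held between 16759025 and 19302248 reads on the 17013 genes. The labels of siMLK4 doxorubicin replicates 2 and 3 carry the same sequencer sample tag (S12), but their reads differed well beyond counting noise (chi-square per degree of freedom 26.1), and both were used. The triplicates are separate transfections of a single line, so the p-values below describe the spread between these libraries. Levels are given as normalized reads, that is reads divided by the size factor of the library. Changes are given as log2 fold changes on the deposited log2-like scale with their standard error (SE), tested with limma across all 17013 genes. A gene was called higher or lower where the Benjamini-Hochberg adjusted p was below 0.01 and the log2 fold change was larger than 0.75 in size. Counts at an unadjusted limma p under 0.05 are also given, but the share of all genes at that level was not computed. Nor was the share of all genes whose groups of libraries do not overlap, so both describe the named genes only.

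All 8 epithelial and basal markers examined were present, with summed levels between 43949.6 and 111000 normalized reads in the 12 libraries. Their sum was lowest in the 3 siMLK4 doxorubicin libraries, and EPCAM had the highest level per length. KRT5, KRT6A, KRT14 and KRT18 were called lower with doxorubicin under both siRNAs, KRT14 and KRT6A lower with siMLK4 under both treatments and KRT17 lower with siMLK4 under doxorubicin. TNBC lacks hormone receptors and does not overexpress HER2. The progesterone receptor gene PGR was at 0 in all 6 vehicle libraries and had at most 18.5 normalized reads with doxorubicin, where it was called higher under both siRNAs. The estrogen receptor gene ESR1 lay between 36.0 and 148 normalized reads, called lower with doxorubicin in siMLK4 cells, and ERBB2, which encodes HER2, between 1272 and 2027. Of 9 markers of immune, endothelial and stromal cells, 5 were in the table, and their summed level ran from 329.8 to 895.2 normalized reads. The collagen gene COL1A1 was the most abundant of them, the leukocyte marker PTPRC had at most 21.2 normalized reads, and CD3E, MS4A1, LYZ and PECAM1 were not among the genes analysed. COL1A1 was called higher with siMLK4 in vehicle, LUM lower with doxorubicin under both siRNAs and PTPRC higher with doxorubicin in siMLK4 cells. The calls of KRT17, ESR1, PTPRC and COL1A1 were each lost without at least 1 single library, for example that of ESR1 without siMLK4 vehicle replicate 2 (−0.64). The part of these markers in the results below was not tested. The vehicle libraries were less alike than the doxorubicin libraries in how levels depended on gene length, with slopes from −0.12 to 0.12 log2 units per doubling of exon length, against −0.08 to 0.06 with doxorubicin. These slopes had both signs within each group.

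MLK4 is encoded by MAP3K21, whose level checked the siRNA labels. All 6 siMLK4 libraries, with 88.7 to 138 normalized reads, lay below all 6 siNT libraries, with 553 to 856. The siMLK4 pool left 15.1% of the siNT level without drug and 14.5% with it. The 4 siRNAs of the pool are shown because a 7-base word that pairs with the seed of the guide strand can also occur in other mRNAs. The sequences are those of the sense strand, and capitals mark that word.
siMLK4_1: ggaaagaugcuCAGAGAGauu
siMLK4_2: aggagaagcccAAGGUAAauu
siMLK4_3: agaagaaacgaGAGGGAAuuu
siMLK4_4: agaacagauugCAAAGAAauu
All 4 matched MAP3K21 over 19 bases. The words occurred in the annotated 3′UTRs of 27.5%, 15.93%, 24.05% and 30.46% of 13602 genes, in the order of the siRNAs. The word of siMLK4_3 was present in the 3′UTRs of NQO1, GCLM, HMOX1 and NFE2L2. That of siMLK4_4 was present in GCLM, SLC7A11 and NFE2L2, that of siMLK4_1 in GCLC and SLC7A11, and that of siMLK4_2 in NFE2L2 and SLC7A11. KEAP1, TXNRD1 and OSGIN1 held none of the 4 words. Words this short are common, and the presence of one does not show that the siRNA acted on the gene.

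Within the NRF2 set, TXNRD1 and NQO1 had the highest levels per length of transcript. Averaged over the 12 libraries and divided by the length of all annotated exons, TXNRD1 had 2758 and NQO1 2009 normalized reads per kb. SLC7A11 followed with 744.6, KEAP1 with 596.5, NFE2L2 with 458.6 and GCLC with 402.1 normalized reads per kb. GCLM had 282, HMOX1 160.1 and OSGIN1 66.1. All exons of each gene were counted in the length, including those of rare isoforms, so genes with many annotated isoforms such as NFE2L2 appear lower on this scale.

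**Figure D1:**
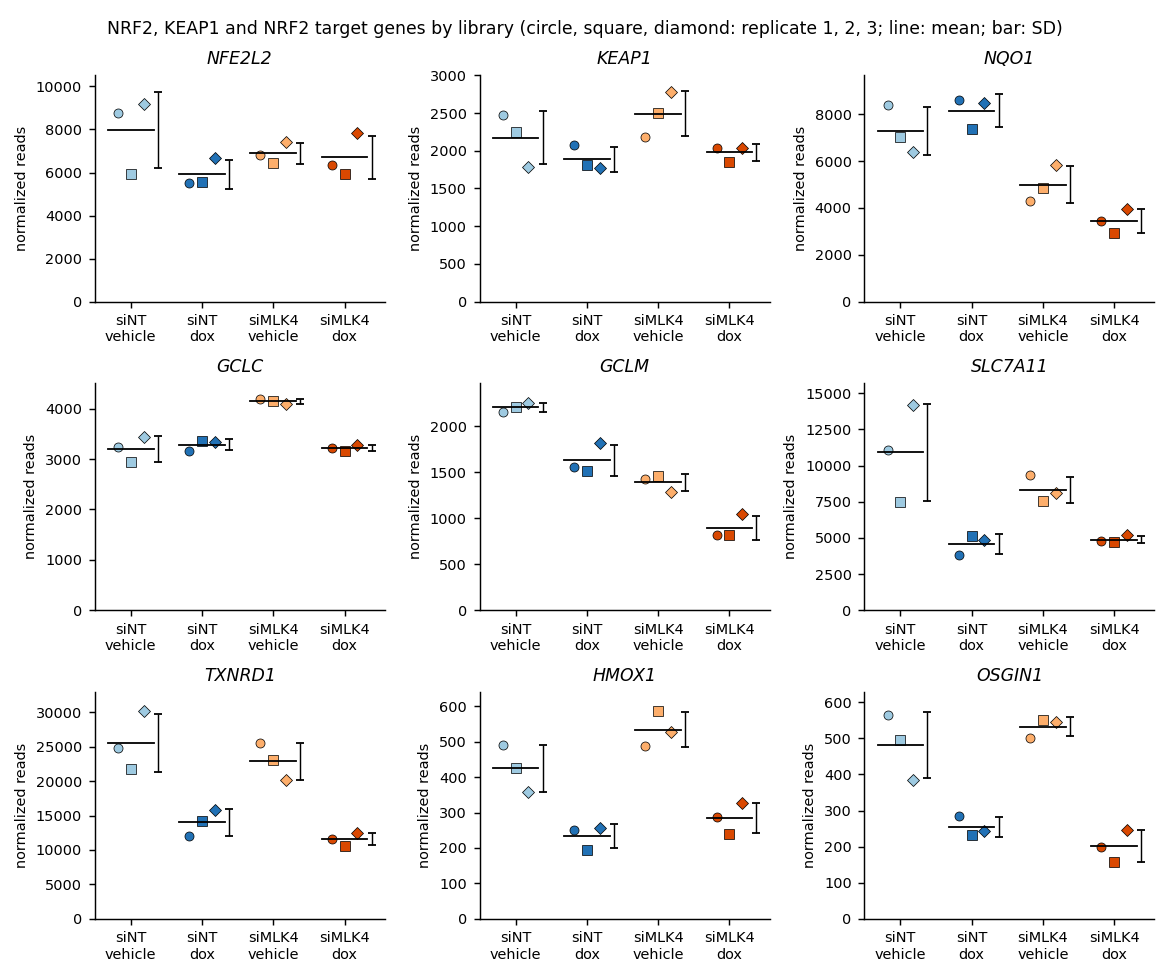
Normalized reads (vertical axes, each starting at 0) of the 9 measured genes in the 12 libraries, by group. Symbols are libraries, horizontal lines group means and bars the standard deviation (SD, n = 3). TXNRD1, SLC7A11, HMOX1, OSGIN1 and GCLM are lower in every doxorubicin library than in every vehicle library of the same siRNA. NQO1 and GCLM are lower in every siMLK4 library than in every siNT library of the same treatment. The share of all genes that separate in this way was not computed.

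The first question was how the regulators themselves responded. NFE2L2 (ENSG00000116044), on the minus strand of chromosome 2 from 177218667 to 177392756 in GRCh38, had 8743, 5936 and 9207 normalized reads in siNT vehicle and 5500.1, 5549.9 and 6681 in siNT doxorubicin cells. In siMLK4 cells it had 6836, 6441 and 7409 in vehicle and 6341, 5927 and 7842 with doxorubicin. The second siNT vehicle library lay within the range of the siNT doxorubicin libraries, and the groups overlapped in all 4 comparisons. NFE2L2 was not called in any of them. Its log2 fold change with doxorubicin was −0.41 (SE 0.16, limma adjusted p = 0.0428) in siNT cells and −0.05 (SE 0.16, limma adjusted p = 0.813) in siMLK4 cells. With siMLK4 it was −0.18 (SE 0.16) in vehicle and 0.18 (SE 0.16) with doxorubicin. Leaving out single libraries moved these values from −0.38 to −0.07 in vehicle and from 0.06 to 0.27 with doxorubicin. NRF2 is controlled mainly through its stability, and the protein was not measured in these libraries.

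KEAP1 (ENSG00000079999; chromosome 19, 10486125 to 10503558, minus strand) had 2476, 2253 and 1787 normalized reads in siNT vehicle and 2073, 1811 and 1773 in siNT doxorubicin cells. The siMLK4 libraries had 2183, 2503 and 2779.5 in vehicle and 2040.2, 1852 and 2042 with doxorubicin. In siMLK4 cells all 3 doxorubicin libraries were below the 3 vehicle libraries, and in the other comparisons the groups overlapped. KEAP1 was not called in any comparison. The log2 fold change with doxorubicin was −0.19 (SE 0.13) in siNT and −0.32 (SE 0.13, limma adjusted p = 0.0476) in siMLK4 cells, and the sign in siNT cells turned when library totals replaced the size factors.

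Several NRF2 targets of the set fell with doxorubicin, and no gene of the set was called higher. In siNT cells 3 of the 9 measured genes were called lower, SLC7A11, TXNRD1 and OSGIN1. Across all genes 10.6% were called lower and 12.1% higher in this comparison. In siMLK4 cells 4 of 9 were called lower, the same 3 and HMOX1, against 10.6% lower and 12.6% higher of all genes. None had a positive fold change at an unadjusted limma p under 0.05 in either background, and limma-voom called none higher. As a group the 9 genes had a median log2 fold change of −0.43 in siNT and −0.62 in siMLK4 cells, beside 0.00 and 0.02 over all genes. The background share is of all genes at all levels, and 9 genes are few. The fall of a transcript in a bulk sample may come from fewer cells of a kind or from less RNA per cell, and the design cannot tell these apart. With library totals as the scale, the median log2 fold change over all genes was 0.18 in siNT and 0.16 in siMLK4 cells. Under that scale every called gene kept its negative sign, but 1 of 9 was called in siNT and 2 of 9 in siMLK4 cells, where 6.43% and 7.49% of all genes were called lower.

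SLC7A11 (ENSG00000151012; chromosome 4, 138164097 to 138242349, minus strand) encodes the cystine carrier of system xc−, which supplies the cysteine for glutathione. It had 11107, 7462 and 14201 normalized reads in siNT vehicle and 3805, 5108 and 4842 in siNT doxorubicin cells. In siMLK4 cells it had 9344, 7583 and 8074 in vehicle and 4772, 4695 and 5189 with doxorubicin. Every doxorubicin library lay below every vehicle library, while the siNT vehicle libraries were the most scattered, with the second the lowest. Its log2 fold change was −1.21 (SE 0.19, limma adjusted p = 9.28e-05) in siNT cells, a fall to 42% of the vehicle mean. In siMLK4 cells it was −0.76 (SE 0.19, limma adjusted p = 0.00323), and this call, close to the fold threshold, was lost without siMLK4 vehicle replicate 1 (−0.68), siMLK4 doxorubicin replicate 1 (−0.74) or siMLK4 doxorubicin replicate 2 (−0.73). The difference between both responses was 0.45 (95% interval −0.12 to 1.01, limma adjusted p = 0.487) and was not called. Leaving out single libraries moved it between 0.23 and 0.69, and it was called in none of those fits.

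TXNRD1 (ENSG00000198431; chromosome 12, 104215779 to 104350307, plus strand) encodes cytosolic thioredoxin reductase, which keeps thioredoxin reduced at the expense of NADPH. It had 24759, 21717 and 30175 normalized reads in siNT vehicle and 11968, 14254 and 15785 in siNT doxorubicin cells. The siMLK4 libraries had 25538, 23039.8 and 20127 in vehicle and 11621, 10628 and 12480.2 with doxorubicin. All 6 doxorubicin libraries were below all 6 vehicle libraries. TXNRD1 fell to 54.8% of the vehicle mean in siNT cells (log2 fold change −0.86, SE 0.15, limma adjusted p = 0.000208) and to 50.5% in siMLK4 cells (−0.98, SE 0.15, limma adjusted p = 7.09e-05). Without siNT vehicle replicate 3, its highest library, the fold change in siNT cells was −0.73 and no longer passed the fold threshold.

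OSGIN1 (ENSG00000140961; chromosome 16, 83931311 to 83966332, plus strand) encodes an oxidative stress induced growth inhibitor. It had 566, 495 and 384 normalized reads in siNT vehicle and 285, 233 and 244 in siNT doxorubicin cells. In siMLK4 cells the values were 502, 550.0 and 545 in vehicle and 200.1, 158 and 246 with doxorubicin. Again all doxorubicin libraries were below all vehicle libraries. Its log2 fold change was −0.79 (SE 0.15, limma adjusted p = 0.000431) in siNT and −1.23 (SE 0.15, limma adjusted p = 1.08e-05) in siMLK4 cells. The siNT call was lost without replicate 1 of siNT vehicle (−0.68) or siNT doxorubicin replicate 2 (−0.74), and the siMLK4 call held without any single library.

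HMOX1 (ENSG00000100292; chromosome 22, 35380361 to 35394214, plus strand) encodes heme oxygenase 1, which breaks down heme and is a classical stress-induced target of NRF2. It had 492, 425 and 358 normalized reads in siNT vehicle and 252, 193 and 255 in siNT doxorubicin cells. The siMLK4 libraries had 489, 586 and 528 in vehicle and 287, 239 and 326 with doxorubicin. No doxorubicin library reached the vehicle libraries of either siRNA. In siMLK4 cells the fall of −0.81 on the log2 scale (SE 0.14, limma adjusted p = 0.000224) was called. That in siNT cells, −0.74 (SE 0.14, limma adjusted p = 0.000461), did not reach the fold threshold. It passed with TMM scaling (−0.77) and with limma-voom (−0.86), and without siNT vehicle replicate 3 (−0.85), siNT doxorubicin replicate 1 (−0.79) or siNT doxorubicin replicate 3 (−0.80). The siMLK4 call was lost without siMLK4 vehicle replicate 2 (−0.75) or siMLK4 doxorubicin replicate 2 (−0.71). The difference of both responses was −0.07 (95% interval −0.49 to 0.36) and was not called.

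The second question was how MLK4 depletion itself moved these genes. In vehicle none of the 9 genes was called in either direction, while 2.51% of all genes were called higher and 3.14% lower. At an unadjusted limma p under 0.05, 2 of the 9 were higher (GCLC and HMOX1) and 2 lower (NQO1 and GCLM), and limma-voom called none. With doxorubicin 2 of 9 were called lower with siMLK4, NQO1 and GCLM, and none higher (none at an unadjusted limma p under 0.05 or by limma-voom), beside 2.66% higher and 2.93% lower of all genes. The medians of the 9 log2 fold changes, −0.15 in vehicle and −0.03 with doxorubicin, stood beside 0.01 and 0.02 for all genes. Both calls with doxorubicin held without any single library and under each of the 9 other settings tried.

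NQO1 (ENSG00000181019; chromosome 16, 69706996 to 69726668, minus strand) encodes NAD(P)H quinone dehydrogenase 1, which reduces quinones by transferring electrons in pairs and is among the most widely used readouts of NRF2. In siNT cells it had 8395, 7042 and 6398 normalized reads in vehicle and 8618, 7356 and 8490.2 with doxorubicin. In siMLK4 cells it had 4282, 4863 and 5849 in vehicle and 3448, 2944 and 3942 with doxorubicin. The siNT libraries overlapped between treatments, all siMLK4 libraries lay below all siNT libraries, and the 3 siMLK4 doxorubicin libraries were the lowest of the 12. With doxorubicin, siMLK4 cells had 42.2% of the siNT level (log2 fold change −1.24, SE 0.15, limma adjusted p = 5.04e-05). In vehicle the value was −0.54 (SE 0.15, limma adjusted p = 0.0141), past neither threshold. The response to doxorubicin was 0.17 (SE 0.15, limma adjusted p = 0.337) in siNT cells and −0.53 (SE 0.15, limma adjusted p = 0.00646) in siMLK4 cells. The difference between these responses, −0.70 (95% interval −1.14 to −0.26, limma adjusted p = 0.114), did not pass the test.

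GCLM (ENSG00000023909; chromosome 1, 93885199 to 93909456, minus strand) encodes the modifier subunit of glutamate-cysteine ligase, the enzyme of the first step of glutathione synthesis. It had 2155, 2214 and 2251 normalized reads in siNT vehicle and 1561, 1511 and 1823 in siNT doxorubicin cells. The siMLK4 values were 1423, 1458 and 1288 in vehicle and 817, 813 and 1048 with doxorubicin. The groups did not overlap in any of the 4 comparisons, and the siMLK4 doxorubicin libraries were the lowest. With doxorubicin, siMLK4 cells had 54.7% of the siNT level (log2 fold change −0.84, SE 0.12, limma adjusted p = 0.000171). In vehicle the log2 fold change was −0.65 (SE 0.12, limma adjusted p = 0.00104), within the fold threshold. Its responses to doxorubicin, −0.43 in siNT (SE 0.12, limma adjusted p = 0.00569) and −0.62 in siMLK4 cells (SE 0.12, limma adjusted p = 0.000408), were within it too. The difference of the responses was −0.19 (95% interval −0.54 to 0.16).

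GCLC (ENSG00000001084; chromosome 6, 53497341 to 53616970, minus strand) encodes the catalytic subunit of the same enzyme and had another pattern. Its values were 3239, 2936 and 3442 normalized reads in siNT vehicle and 3165, 3364 and 3339 in siNT doxorubicin cells. In siMLK4 cells they were 4192, 4149 and 4102 in vehicle and 3229.9, 3158 and 3273 with doxorubicin. The 3 siMLK4 vehicle libraries stood above the other 9, which overlapped. With siMLK4 in vehicle its log2 fold change was 0.37 (SE 0.09, limma adjusted p = 0.00922), and the change with doxorubicin in siMLK4 cells was −0.36 (SE 0.09, limma adjusted p = 0.0041), both within the fold threshold. With doxorubicin the siMLK4 and siNT groups differed by −0.03 (SE 0.09), a sign that turned under library totals.

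**Figure D2:**
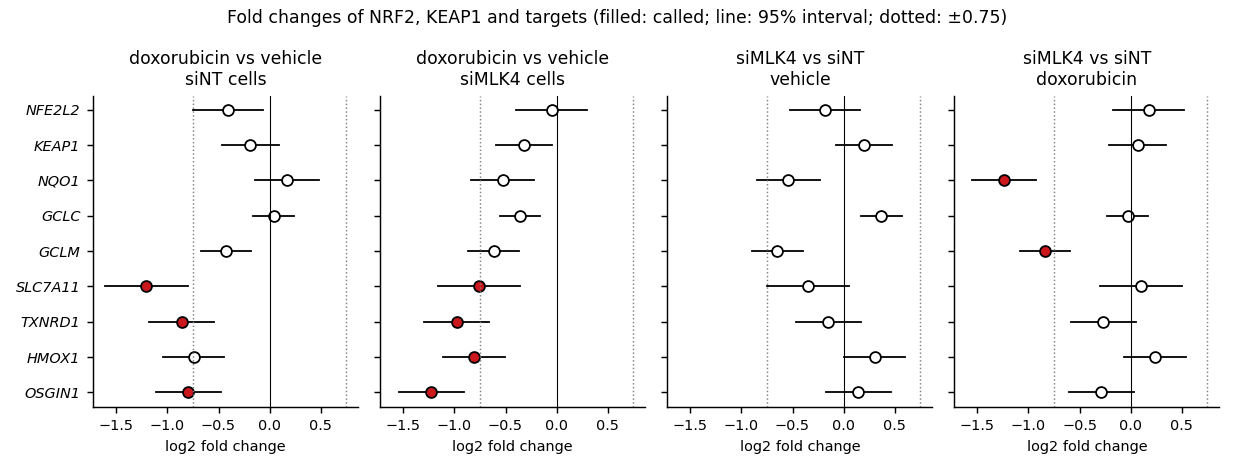
Log2 fold changes (horizontal axes) of the 9 genes in the 4 comparisons, with limma's 95% intervals as lines and called genes filled. The called points all lie left of −0.75, and the only ones in the siMLK4 comparisons are NQO1 (−1.24) and GCLM (−0.84) with doxorubicin.

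No gene of the set was called for a different response to doxorubicin in siMLK4 than in siNT cells. Of all genes 0.276% were called in that test, and 1.2% reached an adjusted p under 0.05 without a fold threshold. At an unadjusted limma p under 0.05, 2 of the 9 had a lower response in siMLK4 cells, NQO1 and GCLC (−0.40, SE 0.13, limma adjusted p = 0.156), and limma-voom called none. The comparisons share libraries, so the fold changes of a gene in different comparisons are not independent of each other.

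The sequences that NRF2 is known to bind were looked up around the transcription starts of these genes, because the set is defined by its shared regulator. A core and a stricter form of the antioxidant response element were searched on both strands, from 1000 bases before to 200 bases after each start in the table of RefSeq promoter sequences used here (GRCh38), which covers some of the genes. The core TGACNNNGC was present around at least 1 start of 45.46% of the 12030 genes of the table with an entry, and of 7 of the 8 members with an entry. HMOX1 and SLC7A11 were not in that table. The stricter TGANTCAGC, which contains the AP-1 site TGANTCA, was present in 4.555% of genes and in 3 of the 8 members, NQO1, OSGIN1 and SRXN1. Of 31 other known NRF2 targets, read further on, 23 had an entry, 13 of them with the core and 5 with the stricter form. Matches of the called genes are shown on the strand of the motif, with capitals marking the match. The stricter form is shown where there is one, and otherwise the core match farthest before its start; OSGIN1 held 1 and TXNRD1 2 further core matches.
NQO1: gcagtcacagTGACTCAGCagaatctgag
GCLM: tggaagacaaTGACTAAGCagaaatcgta
OSGIN1: ttcataagcgTGAGTCAGCaggggcccgt
TXNRD1: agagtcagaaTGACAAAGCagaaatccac
The NQO1 sequence lies at chr16:69726997-69727025 on the minus strand, and the match starts 455 bases before the transcription start. That of GCLM lies at chr1:93909446-93909474 on the plus strand, 34 bases before the start. The OSGIN1 sequence is at chr16:83953131-83953159 on the minus strand, 99 bases before a start, and that of TXNRD1 at chr12:104286920-104286948 on the minus strand, 102 bases before one of its starts. A match describes the sequence only, and the called genes NQO1 and GCLM do not share the stricter form.

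Other genes known as NRF2 targets were read next, 31 in all, each measured. In siNT cells 10 of them were called lower and 2 higher with doxorubicin, beside 10.6% and 12.1% of all genes. The median log2 fold change was −0.39. In siMLK4 cells 16 were called lower and 1 higher, beside 10.6% and 12.6% of all genes, and the median was −0.77. Under library totals 5 and 11 were called lower, when 6.43% and 7.49% of all genes were. Leaving out single libraries gave 8 to 11 genes lower in siNT and 11 to 17 in siMLK4 cells. The numbers called in the siRNA backgrounds were not themselves compared by a test. For the difference between the responses, none of the 31 was called by limma or limma-voom, beside 0.276% of all genes by limma. The difference was negative in 25 of them, with a median of −0.24, beside 0.01 over all genes. The response was lower in siMLK4 cells for 7 and higher for none at an unadjusted limma p under 0.05. With siMLK4, 1 of the 31 was called higher and 1 lower in vehicle, and 1 lower with doxorubicin, shares near those of all genes (2.51% and 3.14% in vehicle, 2.93% lower with doxorubicin). Without adjustment (limma p under 0.05), 7 were higher and 4 lower in vehicle, and 3 higher and 14 lower with doxorubicin. The share of all genes at this unadjusted level was not computed, so these counts have no background. An adjusted p under 0.05 was reached by 9 in vehicle, 2 of them lower, and by 12 with doxorubicin, 10 of them lower. Of all genes 12.7% were higher and 13% lower by that rule in vehicle, and 12.7% higher and 12.1% lower with doxorubicin. The median log2 fold changes were 0.08 and −0.30, beside 0.01 and 0.02 over all genes. In vehicle CYP4F11 was also called lower when replicate 1 of either vehicle group was left out, and by limma-voom.

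**Figure D3:**
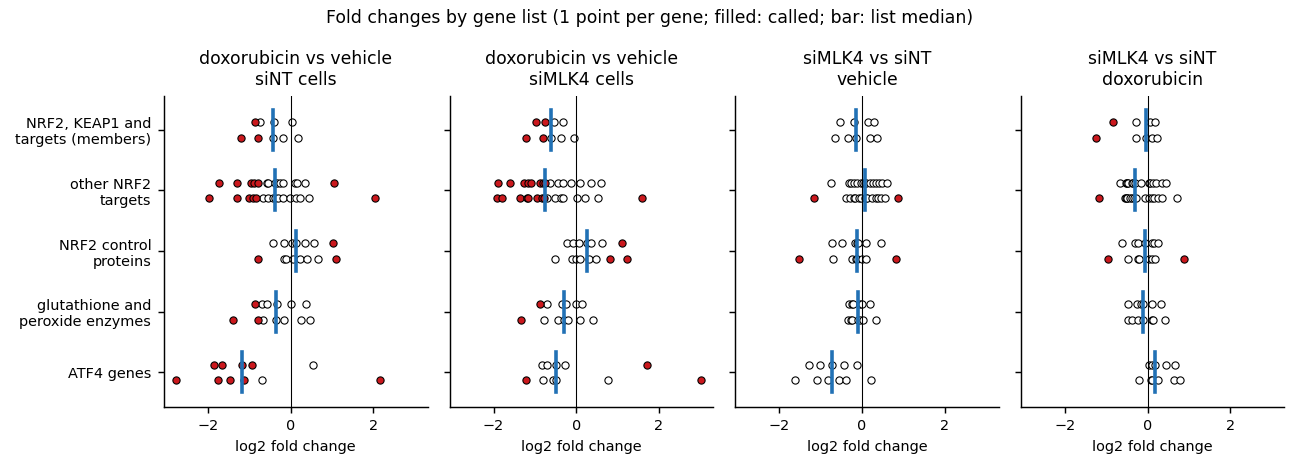
Log2 fold changes (horizontal axes) of the 9 measured genes of the NRF2 set and of 4 further lists in the 4 comparisons, 1 point per gene, called genes filled and list medians as bars. With doxorubicin, called points on the lower side number 10 of 31 in siNT and 16 of 31 in siMLK4 cells among the other NRF2 targets, and 8 of 11 and 1 of 11 among the ATF4 genes.

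TKT, the transketolase of the pentose phosphate pathway, had 6543, 7249 and 7891 normalized reads in siNT vehicle and 2820.2, 2434 and 3492 in siNT doxorubicin cells, a log2 fold change of −1.31 (SE 0.16). In siMLK4 cells it fell to 26.2% of the vehicle mean (log2 fold change −1.91, SE 0.16). ME1, the cytosolic malic enzyme, fell to 56.9% in siNT (log2 fold change −0.80, and −0.72, not called, without siNT vehicle replicate 1) and 44.1% in siMLK4 cells. GSR, which regenerates reduced glutathione, fell to 50.6% and 42.6%. TALDO1, the transaldolase, was called lower in siMLK4 cells, at 56.9% of the vehicle mean, and the difference of the responses, −0.24 (SE 0.19, limma adjusted p = 0.634), did not pass the test. The TALDO1 call was lost without siMLK4 vehicle replicate 3 (−0.67). PGD, which makes NADPH in the same pathway, was not called, with −0.01 (SE 0.11) in siNT and −0.32 (SE 0.11) in siMLK4 cells.

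Detoxifying enzymes and transporters of the list moved in both directions. PIR, an iron-binding nuclear protein, fell to 24.4% of the vehicle mean in siNT and 22.3% in siMLK4 cells. CYP4F11, a cytochrome P450, fell to 21.4% and 20.4%, and the efflux pump gene ABCC2 to 49.1% and 37.7%. The aldo-keto reductase genes AKR1C2 (log2 fold change −1.30 and −1.59) and AKR1C3 (−0.83 and −1.16) were called lower under both siRNAs, and AKR1C1 in siMLK4 cells (−0.78). These 3 genes are similar in sequence, and their reads may be assigned to each other. The same holds for TRIM16 and its copy TRIM16L, so the separate values of these genes are uncertain. The heme transporter gene SLC48A1 and TRIM16L were called lower under both siRNAs as well. In siMLK4 cells CBR1, FTH1, GPX2 and TRIM16 were also called lower, at 57.7%, 54.4%, 50.3% and 47.5% of the vehicle mean. Without siMLK4 vehicle replicate 3 neither CBR1 (−0.64) nor FTH1 (−0.58) nor SLC48A1 (−0.70) nor AKR1C1 (−0.71) was called in siMLK4 cells, and in that library FTH1 stood highest of the 12. Without siMLK4 doxorubicin replicate 2 the same 4 calls were lost too (CBR1 −0.68, FTH1 −0.76, SLC48A1 −0.73, AKR1C1 −0.72). FTH1 was also not called without siMLK4 vehicle replicate 2 or siMLK4 doxorubicin replicate 1, nor AKR1C1 without siMLK4 vehicle replicate 2 (−0.74). The AKR1C3 call in siNT cells was lost without replicate 1 of siNT vehicle (−0.71) or siNT doxorubicin replicate 2 (−0.75). Reads of FTH1 and FTL may also be shared with processed copies elsewhere in the genome. EPHX1, microsomal epoxide hydrolase, went the other way, with 588, 544 and 527 normalized reads in siNT vehicle and 2777, 2357 and 2179 in siNT doxorubicin cells (log2 fold change 2.03, SE 0.11, limma adjusted p = 2.24e-08). It had 1036, 1006 and 1141 and 3597, 3346 and 3017 in the corresponding siMLK4 libraries and was called higher there too (1.60, SE 0.11). CBR3, a carbonyl reductase that converts doxorubicin to its alcohol, was called higher in siNT cells (1.04, SE 0.18). In siMLK4 cells its change was also positive, 0.50 to 0.67 without single libraries, but within the fold threshold. Under library totals CBR3 was called higher there, when 17% of all genes were.

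Of the 31 genes, EPHX1 and ABCC3 were called with siMLK4. ABCC3, a drug and conjugate efflux pump, had 659.9, 673 and 665 normalized reads in siNT vehicle and 301, 218 and 295 in siMLK4 vehicle cells. With doxorubicin the values were 718, 803 and 823 in siNT and 319, 298 and 345 in siMLK4 cells. All siMLK4 libraries were below all siNT libraries, at 40.8% of the siNT mean in vehicle (log2 fold change −1.16, SE 0.12, limma adjusted p = 1.1e-05) and 41% with doxorubicin. EPHX1 was higher with siMLK4 in vehicle (0.88, SE 0.11). FTL, the ferritin light chain and the gene of highest level per length in the list, was not called, with 0.60 (SE 0.20) in vehicle and 0.70 (SE 0.20) with doxorubicin. Under library totals FTL was called higher with doxorubicin, when 3.66% of all genes were.

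Genes for partners and control proteins of NRF2 came next, 15 in all, each measured. With doxorubicin 2 were called higher and 1 lower in siNT cells, and 3 higher and none lower in siMLK4 cells, where 1 was lower at an unadjusted limma p under 0.05 and limma-voom called none lower. Among all genes 12.1% were higher and 10.6% lower in siNT cells, and 12.6% and 10.6% in siMLK4 cells. Under library totals 4 were called higher and none lower under each siRNA, when 16.7% of all genes were higher in siNT and 17% in siMLK4 cells. With siMLK4, 1 of the 15 was called higher and 1 lower under each treatment, beside 2.51% and 3.14% of all genes in vehicle and 2.66% and 2.93% with doxorubicin. In vehicle a second gene was called lower when a library was left out, NFE2L3 without replicate 1 of either vehicle group and MAFK without siNT vehicle replicate 3. The one lower with all libraries was MAFF, which encodes a small MAF protein of the kind that pairs with NRF2. It had 1127, 576 and 715 normalized reads in siNT vehicle and 188, 219 and 315 in siMLK4 vehicle cells. With doxorubicin it had 1340.0, 1216 and 1218 in siNT and 611, 563 and 701 in siMLK4 cells. Neither treatment showed an overlap between the siRNAs, and the first siNT vehicle library stood well above the other vehicle libraries. The siMLK4 log2 fold change was −1.53 (SE 0.20, limma adjusted p = 9.11e-05) in vehicle and −0.96 (SE 0.20, limma adjusted p = 0.00314) with doxorubicin, and the latter was called in 7 of 12 fits that left out 1 library. It was lost without any of the 3 siNT doxorubicin libraries or without siMLK4 doxorubicin replicate 1 or 2 (limma adjusted p up to 0.0166). MAFF also rose with doxorubicin in siMLK4 cells (1.23, SE 0.20), while the value in siNT cells was 0.66 (limma adjusted p = 0.0112) and was called without siNT vehicle replicate 1 (0.91) or under library totals.

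MAFK, another small MAF gene, was lower with siMLK4 in every library but within the fold threshold, with 1725, 1544 and 1427 and 997, 934 and 885 normalized reads in siNT and siMLK4 vehicle cells (log2 fold change −0.70, SE 0.11, limma adjusted p = 0.000417) and −0.62 with doxorubicin. MAFG, the remaining small MAF gene, was not called either, with −0.40 (SE 0.15) in vehicle and 0.03 (SE 0.15) with doxorubicin. BTRC, which encodes the β-TrCP adaptor of a KEAP1-independent NRF2 ubiquitin ligase, was the gene called higher. It had 464, 592 and 639 normalized reads in siNT vehicle and 1128, 1067 and 893 in siMLK4 vehicle cells. With doxorubicin the values were 493, 498 and 499.8 and 962, 1093 and 834. All siMLK4 libraries were above all siNT libraries. Its log2 fold change was 0.81 (SE 0.13, limma adjusted p = 0.000554) in vehicle and 0.88 (SE 0.13, limma adjusted p = 0.000339) with doxorubicin. The call in vehicle was lost when replicate 1 of siNT vehicle (0.69) or of siMLK4 vehicle (0.75) was left out. When only the vehicle libraries were fitted, BTRC (0.81, limma adjusted p = 0.0133) and MAFF (−1.53, limma adjusted p = 0.01) were not called, although their fold changes were as large. In that fit 1.48% of all genes were called higher and 2.12% lower, against 2.51% and 3.14% with all libraries.

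**Figure D4:**
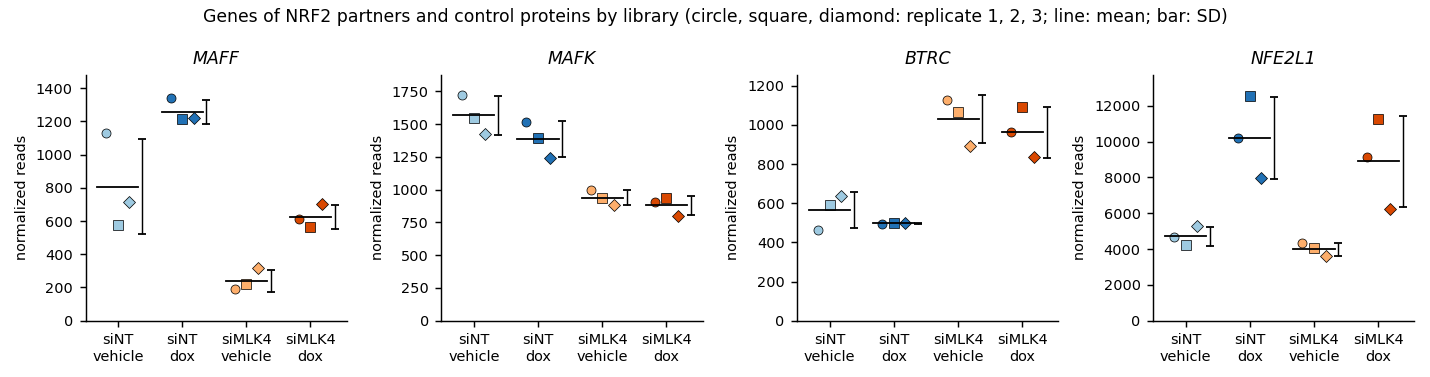
Normalized reads (vertical axes, each starting at 0) of MAFF, MAFK, BTRC and NFE2L1 in the 12 libraries, by group. Symbols are libraries, lines group means and bars the SD (n = 3); MAFF and MAFK lie lower and BTRC higher in the siMLK4 than in the siNT libraries of the same treatment, and NFE2L1 is higher with doxorubicin under both siRNAs.

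NFE2L1, a relative of NRF2 known for driving proteasome genes and the gene of highest level per length in this list, rose with doxorubicin. It had 4657, 4208 and 5279.7 normalized reads in siNT vehicle and 10206, 12517 and 7945 in siNT doxorubicin cells. In siMLK4 cells it had 4314, 4034 and 3594 in vehicle and 9133, 11286 and 6262 with doxorubicin. The doxorubicin groups were wide, and each stayed above its vehicle group. Its log2 fold change was 1.09 (SE 0.20) in siNT and 1.11 (SE 0.20) in siMLK4 cells. TRIM21, a ubiquitin ligase known to modify the KEAP1-binding protein p62, was called higher under both siRNAs (1.02 and 0.81). GSK3B, the kinase that marks NRF2 for β-TrCP, was called lower in siNT cells (−0.78, SE 0.15), and this call was lost under library totals and with the gene-length covariate (−0.74) and rested on siNT vehicle replicate 3 (−0.64 without it) and siNT doxorubicin replicate 1 (−0.71).

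Of 13 further enzymes and carriers of the glutathione and peroxide systems, all measured, 3 were called lower with doxorubicin in siNT cells and 2 in siMLK4 cells, and none was called higher by limma or limma-voom (1 had a higher level at an unadjusted limma p under 0.05 under each siRNA). Of all genes 10.6% were called lower under each siRNA, and 12.1% higher in siNT and 12.6% in siMLK4 cells. These counts moved with single libraries, to 5 lower in siNT cells without siNT vehicle replicate 3 and to 4 lower in siMLK4 cells without siMLK4 vehicle replicate 1, and under library totals 1 was called lower under each siRNA. CAT, which encodes the peroxide-degrading catalase, fell to 38.1% of the vehicle mean in siNT (log2 fold change −1.40, SE 0.15) and 39.5% in siMLK4 cells (−1.34, SE 0.15). PRDX3, the mitochondrial peroxiredoxin, fell by a similar amount under both siRNAs (−0.87 and −0.87), and neither value was called under library totals (−0.63 and −0.69). SLC3A2, which encodes the heavy chain that partners SLC7A11, was called lower in siNT cells (−0.78, SE 0.18), and without siNT vehicle replicate 1 its value was −0.57. PRDX5 had the highest level per length of the list and was not called at the settings used throughout. Its value with doxorubicin in siNT cells ran from −0.88 to −0.43 without single libraries. It was called lower there without siNT vehicle replicate 3 or with the gene-length covariate. In siMLK4 cells PRDX5 was called lower in 3 of 12 fits that left out 1 library and under 3 of 9 other settings, among them TMM scaling. None of the 13 was called with siMLK4 by limma or limma-voom, where few would be at the shares of all genes (2.51% higher and 3.14% lower in vehicle, 2.66% and 2.93% with doxorubicin). At an unadjusted limma p under 0.05, 1 was higher and 2 lower in vehicle, and 1 higher and 5 lower with doxorubicin, with no share of all genes computed.

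SLC7A11 is also a target of ATF4, the transcription factor of the amino acid and unfolded protein stress response, and 11 ATF4 genes were therefore read beside it. With doxorubicin in siNT cells 8 of the 11 were called lower and 1 higher, beside 10.6% and 12.1% of all genes. The median log2 fold change was −1.17. In siMLK4 cells 1 was called lower and 2 higher, with a median of −0.49, beside 10.6% and 12.6%. There 2 were called lower, with ATF4 itself as the second, without replicate 1 or 2 of siNT vehicle, siMLK4 vehicle replicate 1 or siMLK4 doxorubicin replicate 3. In the test of the difference between these responses none of the 11 was called by limma or limma-voom, 6 were higher in siMLK4 cells at an unadjusted limma p under 0.05, and the median difference was 0.89. The 8 lower genes in siNT cells were ATF4 itself, CHAC1, TRIB3, ASNS, PSAT1, PHGDH, SHMT2 and SLC7A5. Among the listed genes ASNS had by far the lowest level, 5.2 normalized reads per kb. It was left out of the fit that required at least 10 reads in every library. ATF4 had 16688, 8786 and 11666 normalized reads in siNT vehicle and 4177, 3926 and 4739 in siNT doxorubicin cells, and 6489, 6759.6 and 12239 and 4556, 3566 and 5771 in the corresponding siMLK4 libraries. SLC7A5, the large neutral amino acid carrier and the gene of highest level per length in the list, was the one called lower under both siRNAs (−1.76 and −1.22). ATF3 rose under both (2.16 and 3.02) and DDIT3 in siMLK4 cells (1.72). The summed level of the 11 genes was 68955, 41826.5 and 61565.4 normalized reads for siNT and 37152.3, 35570.6 and 49299.8 for siMLK4 without drug. The second siNT vehicle library was thus the lowest of its group for the ATF4 genes, as for SLC7A11 and NFE2L2, and the part of this in the SLC7A11 result was not tested. None of the 11 was called with siMLK4 at the settings used throughout or by limma-voom, while limma with the gene-length covariate called 3 lower in vehicle (3.31% of all genes). There 10 of 11 fold changes were negative (median −0.72), 8 at an unadjusted limma p under 0.05, and 5 were called lower without siNT vehicle replicate 2 or without siMLK4 vehicle replicate 3, fits in which 3.38% and 3.16% of all genes were. With doxorubicin 2 were higher and none lower at the unadjusted level, for which the share of all genes was not computed.

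Finally, the genes most like NFE2L2 and NQO1 across the 12 libraries were listed among 10539 protein-coding genes with a mean of at least 100 normalized reads. For NFE2L2 these were SYBU (Pearson r = 0.94), SLC6A9 (0.93), AHR (0.88), PSAT1 (0.87) and ADGRG1 (0.87). For NQO1 they were AP3S1 (0.98), NDUFB9 (0.97), TATDN1 (0.96), DFFA (0.96) and TRMT2B (0.96). Within the set the closest pairs were SLC7A11 with TXNRD1 (r = 0.94) and HMOX1 with OSGIN1 (0.90), and NQO1 was closest to GCLM (0.84). NFE2L2 and NQO1 had r = 0.06. These correlations are descriptive, and the 12 points fall into 4 groups and share scaling and depth. How far differences between and within groups contribute to them was not tested.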

How the data were processed

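Gene expression was measured by mRNA-seq in 12 HCC1806 libraries, 4 groups of 3, taken from the labels. The deposited values are variance-stabilized, log2-like levels of 17013 genes given as Ensembl identifiers; the transformation was not stated. The authors trimmed reads with Trimmomatic (0.39), aligned them with HISAT2, counted reads by strand with HTSeq (0.6.0) and used DESeq2 (1.26.0), per the submitters' processing notes and the study's methods. The methods name GRCh38 and the notes hg19, so GRCh38 coordinates (GENCODE 44, RefSeq) serve for names and positions only. The 10 members and all gene lists were chosen with earlier results of these data known.

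Inverting the transformation gave normalized reads, and 100% of values were whole reads within 0.05 once multiplied by size factors (0.852 to 1.20). The deposited log2-like values were fitted with limma 3.58.1 (R 4.3.3; lmFit, eBayes with a variance trend) as 4 group means of 12 libraries. The script was tested on simulated data. All 17013 genes had a group mean of at least 10.7 normalized reads in their highest group, so very low genes had been removed before deposit. Of them 16957 were annotated. Replicates of a group differed beyond counting noise (chi-square per degree of freedom 7.20 to 68.1), so none was counted as a duplicate. Named were all members, the siRNA target, every list gene called in a comparison, each pathway list's gene of highest level per length, and the 5 genes most like NFE2L2 and NQO1. MAFK, MAFG and PGD were added after their values were seen. A further target in the list as first drawn up is not reported here. The study's methods state no pairing, and the main fit used none. Deviations of same-numbered libraries from their group means were correlated across genes. The values were 0.46, 0.11 and 0.20 for doxorubicin in siNT cells and 0.19, 0.52 and 0.56 for siMLK4 with doxorubicin. Negative values occurred for doxorubicin in siMLK4 cells (lowest −0.08) and for siMLK4 in vehicle (lowest −0.72). Alternatives covered scaling, filters, the transformation, the replicate block, limma-voom, the threshold and leaving out each library. A fit with each library's gene-length slope as a covariate was chosen after seeing the data.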

Additional observations from a re-analysis of the deposited data

How the results depend on the processing

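The calls of NQO1 and GCLM lower with siMLK4 under doxorubicin held in all 12 fits that left out a library and under all other settings that could be fitted. Calls with doxorubicin rested more on the scaling and on single libraries. Library totals in place of size factors left 1 gene lower in siNT and 2 in siMLK4 cells (6.43% and 7.49% of all genes), and turned the sign of KEAP1 with doxorubicin in siNT cells (0.045), NFE2L2 with doxorubicin in siMLK4 cells (0.136) and GCLC with siMLK4 under doxorubicin (0.057). With a looser rule, adjusted p under 0.05 and any fold change, 6 genes were lower in siNT and 8 in siMLK4 cells with doxorubicin (27.7% of all genes in each), and with siMLK4 in vehicle 1 was higher and 2 lower (12.7% and 13% of all genes). Without single libraries the count in siMLK4 cells ranged from 2 to 4, with 2 without siMLK4 doxorubicin replicate 2. Some uncalled values changed sign without single libraries: GCLC with doxorubicin in siNT (−0.022 to 0.091), NFE2L2 with doxorubicin in siMLK4 (−0.166 to 0.035), SLC7A11 with siMLK4 under doxorubicin (−0.027 to 0.183), and the response differences of KEAP1 (−0.227 to 0.002) and HMOX1 (−0.175 to 0.037). The cause was not tested.

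With the replicate number as a block, 3 genes were called lower with doxorubicin in siNT and 4 in siMLK4 cells, 2 with siMLK4 under doxorubicin and none in vehicle (10.6%, 10.6%, 2.92% and 3.12% of all genes), and the block changed no call of the 9 genes. Among the ATF4 genes it called TRIB3 and CHAC1 lower with siMLK4 in vehicle, and ATF4 lower with doxorubicin in siMLK4 cells. In these comparisons some same-numbered libraries deviated from their group means in opposite directions. The gene-length covariate ended the SLC7A11 call in siMLK4 cells (−0.74) and made that of HMOX1 in siNT cells (−0.77). Over all genes, calls in the test of response differences went from 17 higher and 30 lower to 119 and 107 with that covariate, and to none without siMLK4 doxorubicin replicate 1. Library totals gave 2848 genes higher and 1094 lower with doxorubicin in siNT cells, against 2060 and 1799. The fit to only the groups compared gives no value for the response difference. The lowest count among the 9 genes was 189 reads, for OSGIN1 in a siMLK4 doxorubicin library.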
